A study of Homo sapiens with 8 samples.

Results

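Bile acid synthesis enzymes were followed in HepG2 cells, a human hepatocellular carcinoma line. The set holds 10 genes of the 26716 in the table, taken by symbol: CYP7A1, CYP8B1, CYP27A1, CYP7B1, AKR1D1, AKR1C4, BAAT, SLC27A5, HSD3B7 and AMACR. Poly(A) RNA was read from 8 libraries in 4 groups of 2. All cells received both a small RNA mimic or its negative control at 1 nM and an siRNA or its negative control at 30 nM, and were lysed after 72 h. The siIPO8-miR-552-3p group (si-importin8-miR-552-3p in the sample titles) had the miR-552-3p mimic with the importin8 siRNA, the miR-552-3p group had the mimic with the control siRNA, the siIPO8-NC group had the control mimic with the importin8 siRNA, and the NC group had both controls. The design text says that each group had 2 experiments and says nothing of separate cultures; the p-values therefore reflect the spread of these libraries alone, which may be technical. There was no library of untransfected cells, and a tumour line is a model of hepatocytes with its own levels of liver genes.

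Hepatocytes turn cholesterol into bile acids by 2 routes. The classic route opens with CYP7A1, the rate-limiting 7-alpha-hydroxylase, and the alternative route with CYP27A1 and CYP7B1; CYP8B1 adds the 12-alpha-hydroxyl group that sets cholic acid apart from chenodeoxycholic acid. The ring is then changed by HSD3B7, AKR1D1 and AKR1C4, the side chain is shortened after steps that include AMACR, and SLC27A5 and BAAT join the product to glycine or taurine. In the liver, bile acids bound to the nuclear receptor FXR (NR1H4) induce SHP (NR0B2), and intestinal FGF19 acts through FGFR4 and beta-klotho (KLB), both lowering CYP7A1. The series' title places its question in the activity of FXR and LXR.

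The mature microRNA whose mimic was given is shown with stretches of 2 of the 4 member transcripts whose 3′UTR holds the complement of its seed. Of these 4, CYP8B1 and AMACR, shown here, fell with the mimic in both arms, and CYP7B1 had too few counts for the test. With the mimic, CYP7A1 fell in the arm with the importin8 siRNA (log2 -1.06). In the arm with the control siRNA its value was positive (0.52). Among the members whose 3′UTR lacks the complement, HSD3B7 and AKR1D1 also fell with the mimic in both arms, and AKR1C4 and BAAT rose in both. SLC27A5 was called lower only in the arm with the control siRNA, and CYP27A1 only in the arm with the importin8 siRNA. The difference of the mimic's effect between the arms was not called for either gene in edgeR's test. In log2, with the importin8 siRNA minus with the control siRNA, it was 0.65 (adjusted p = 0.096) and -0.22 (adjusted p = 0.064). The labels do not print the mimic's own bases, so the microRNA is that of RefSeq (GRCh38.p14, chr1:34669614-34669634, minus strand), with its seed, bases 2 to 8, in capitals. The stretches are read from GENCODE v29 on GRCh38, each of at most 30 bases, at chr3:42874242-42874270 for CYP8B1 and chr5:33988540-33988568 for AMACR, both on the minus strand, with the letters CACCTGT in capitals.
hsa-miR-552-3p: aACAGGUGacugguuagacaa
CYP8B1 3′UTR: attgcatctctCACCTGTtctcacccctc
AMACR 3′UTR: aagaaaagtttCACCTGTattgaatcaga
In the sense strand of annotated 3′UTRs the letters CACCTGT occurred in 4 of the 10 members, once each in CYP8B1, AMACR, CYP7A1 and CYP7B1, and in 18.1% of the 19133 genes with a 3′UTR. The letters were found on either strand in none of the promoter windows of the 7 members with an entry in the RefSeq table, and in 4.12% of all 35116 windows. CYP7A1, CYP8B1 and CYP7B1 had no entry, so their promoters were not searched. A match is a description of the letters and not a site shown to be used. These searches were chosen after the levels had been seen.

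Expected counts summed to 21608563 to 22102373 per library. IPO8, the target of the siRNA, had 7.63 and 8.31 CPM (counts scaled to library size) in siIPO8-miR-552-3p against 25.4 and 24.6 CPM in miR-552-3p, and 11.3 and 11.5 CPM in siIPO8-NC against 34.6 and 33.3 CPM in NC. It fell with the siRNA in both arms (log2 fold change -1.65 ± 0.09 and -1.57 ± 0.08, SE), and also with the mimic (-0.52 ± 0.09 with the importin8 siRNA and -0.44 ± 0.08 with the control siRNA). All 10 hepatocyte markers were detected in every group, and their summed level was 77983 and 73988 CPM in siIPO8-miR-552-3p, 49232 and 50030 CPM in miR-552-3p, 69761 and 67007 CPM in siIPO8-NC, and 69610 and 62862 CPM in NC. Of these 10, 1 rose and 7 fell in miR-552-3p against NC (median log2 -0.52). In siIPO8-miR-552-3p against siIPO8-NC 2 rose and 3 fell (median -0.02). In siIPO8-NC against NC 6 rose and 3 fell (median 0.36). In siIPO8-miR-552-3p against miR-552-3p 9 rose and 0 fell (median 0.57). The sum of 19 markers of other cell types was 2500 and 2544 CPM in siIPO8-miR-552-3p, 3134 and 3101 CPM in miR-552-3p, 2613 and 2581 CPM in siIPO8-NC, and 2989 to 3439 CPM in NC, with DCN and LUM, markers of fibroblasts, at 0 in the last 3 of these groups, KRT7 also at 0 in NC, and COL1A2, COL3A1 and CD3E at 0 in siIPO8-miR-552-3p. These sums hide moves of single markers, since LYZ, a macrophage marker, made up most of the NC sum, with 2390 and 2001 CPM. In miR-552-3p against NC, 4 of the 13 tested markers of other cells rose and 6 fell. KRT19, a biliary keratin, rose 21.1-fold (676 and 647 CPM in miR-552-3p against 35.3 and 27.3 CPM in NC). CD79A, of B cells, and COL1A1, of fibroblasts, rose by 5.44 and 3.43 on the log2 scale, from 6 to 8 counts per NC library. SPP1, a biliary and progenitor marker, rose by 1.82. The biliary and progenitor markers SOX9 and EPCAM fell (log2 -1.19 and -0.59), as did PDGFRB, of fibroblasts (-1.61), and LYZ (-1.37). VWF and PECAM1, of endothelium, fell too (-2.19 and -1.36). In siIPO8-miR-552-3p against siIPO8-NC 3 rose and 3 fell, with KRT19 at 174 and 170.4 CPM against 68.6 and 66.3 CPM, and SOX9 lower (log2 -0.37). In siIPO8-NC against NC 3 rose and 5 fell, and in siIPO8-miR-552-3p against miR-552-3p 2 rose and 5 fell. For both marker lists, the share of all genes that changed (adjusted p under 0.05 in edgeR's test) stands beside these counts. It was 58.4%, 31.7%, 47% and 33.5% in these 4 comparisons, in the order given. The part of these markers in the results was not tested, and in bulk RNA fewer cells of a type and less RNA per cell cannot be told apart.

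Of the 10 members, 9 had enough counts for the test; CYP7B1 had at most 4.67 counts in a library and was left out. In miR-552-3p against NC, 3 of the 9 rose and 5 fell, with a background of 58.4% of all 17715 genes called (28.9% higher, 29.5% lower); the members' median log2 fold change was -0.84, against -0.01 over all genes tested. In siIPO8-miR-552-3p against siIPO8-NC, 2 rose and 6 fell, where 31.7% of all genes were called (15% higher, 16.7% lower), and the median was -0.50, against 0.00 over all genes. In siIPO8-NC against NC, 5 rose and 1 fell, where 47% of all genes were called (25.4% higher, 21.6% lower), with a median of 0.53 against 0.00. In siIPO8-miR-552-3p against miR-552-3p, 3 rose and 2 fell, where 33.5% of all genes were called (17.3% higher, 16.2% lower), with a median of 0.33 against -0.01. A gene was called at an adjusted p under 0.05 in edgeR's quasi-likelihood test. The comparisons share libraries: siIPO8-NC and NC each stand in 2 of these 4, and so do both mimic groups.

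**Figure D1:**
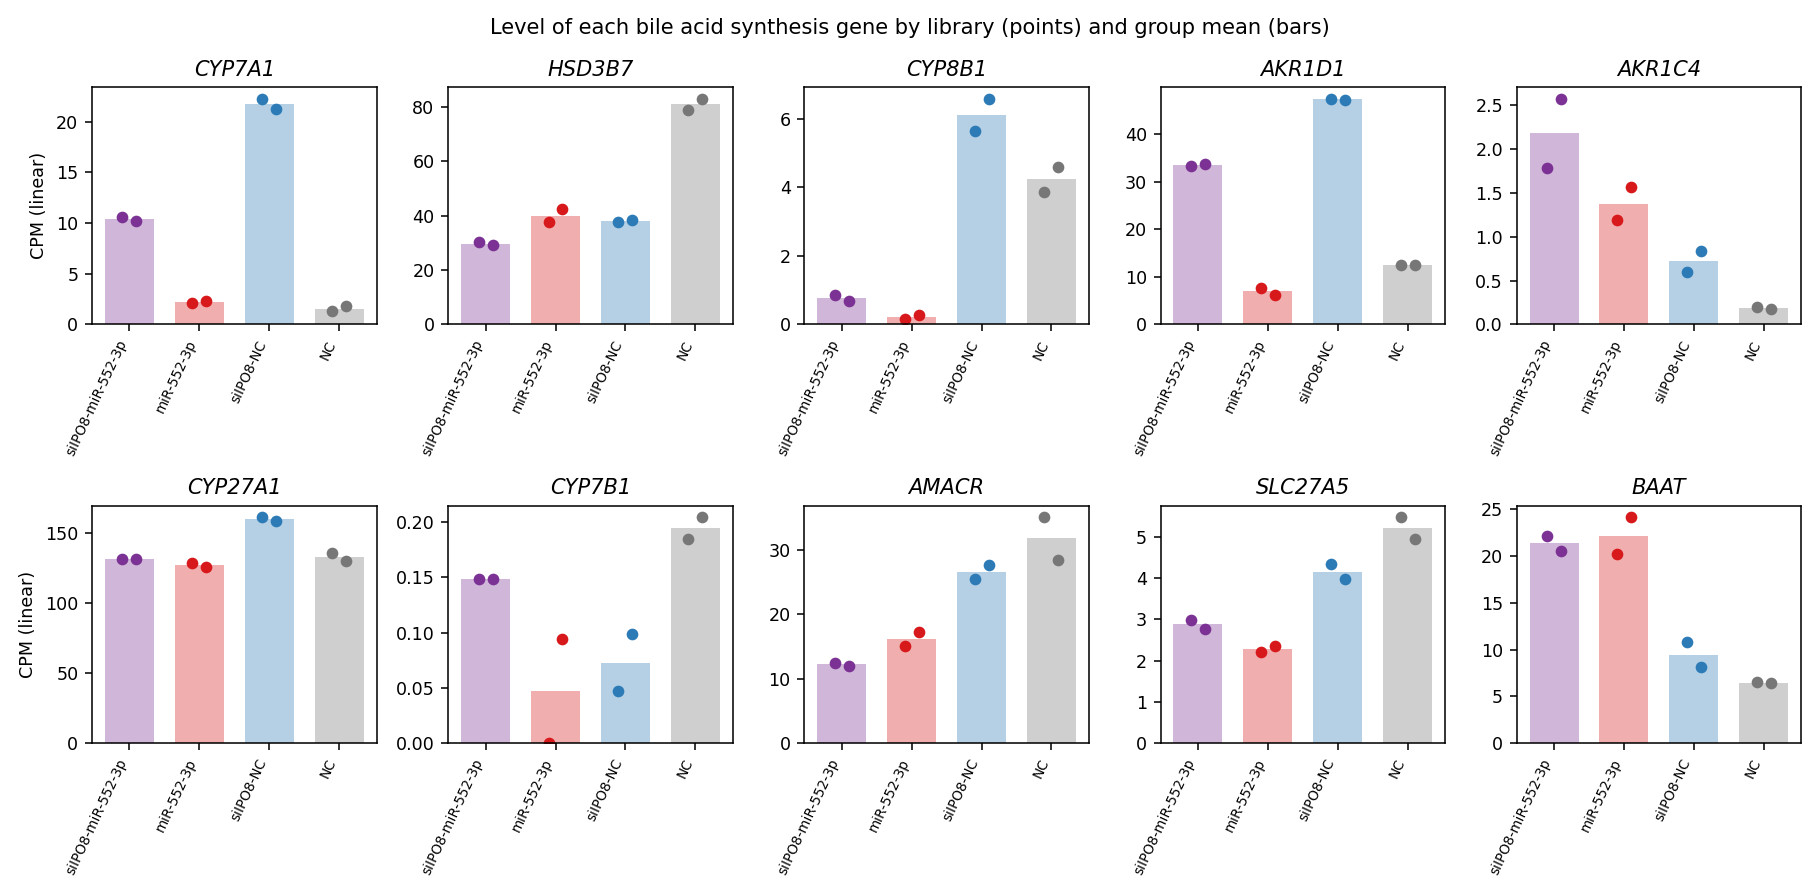
Level of the 10 bile acid synthesis genes in CPM (linear axis from 0, its own scale in each panel) by group, with 1 point per library and bars at the mean of 2. CYP7A1 and AKR1D1 stand highest in siIPO8-NC, CYP8B1 is under 1 CPM in both mimic groups, and BAAT is above 20 CPM in both mimic groups.

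CYP7A1 (gene ID 1581) had the largest change of the members with the importin8 siRNA under the control mimic, and the next largest after AKR1D1 under the miR-552-3p mimic. It lies on the minus strand of chromosome 8 from 58490178 to 58500236 (GRCh38, GENCODE v29, as all gene positions here). It had 10.6 and 10.2 CPM in siIPO8-miR-552-3p, 2.11 and 2.36 CPM in miR-552-3p, 22.3 and 21.2 CPM in siIPO8-NC, and 1.31 and 1.80 CPM in NC, from 216 to 497 counts in the siRNA libraries and 29 to 50 in the others. All 4 libraries with the importin8 siRNA lay above all 4 without it, and siIPO8-NC lay above siIPO8-miR-552-3p.

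With the siRNA, CYP7A1 rose 14.0-fold in siIPO8-NC over NC (log2 3.80 ± 0.16, adjusted p = 1.1e-07) and 4.67-fold in siIPO8-miR-552-3p over miR-552-3p (log2 2.22 ± 0.16, adjusted p = 5.7e-06). With the mimic it fell in siIPO8-miR-552-3p against siIPO8-NC (log2 -1.06 ± 0.13, adjusted p = 0.00023). In miR-552-3p against NC the value was positive, 0.52 ± 0.19 (adjusted p = 0.037), but the call was lost in 12 of 15 alternatives, among them each left-out library except NC replicate 2; without NC replicate 1 it was 0.31 (adjusted p = 0.33). The mimic's effect differed between the arms by -1.58 ± 0.23 (with the importin8 siRNA minus with the control siRNA, adjusted p = 0.00059), a call that held in all 14 alternatives.

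CYP8B1 (gene ID 1582, chromosome 3, 42856005 to 42876165, minus strand), the sterol 12-alpha-hydroxylase, was the member that fell furthest with the mimic. It had 0.863 and 0.694 CPM in siIPO8-miR-552-3p against 5.64 and 6.59 CPM in siIPO8-NC, and 0.172 and 0.263 CPM in miR-552-3p against 3.85 and 4.60 CPM in NC. The mimic libraries held 3.76 to 18.0 counts each and the others 85.5 to 146, with no overlap in either arm. The fall was 7.70-fold with the importin8 siRNA (log2 -2.94 ± 0.26, adjusted p = 3.7e-05) and 17.8-fold with the control siRNA (log2 -4.16 ± 0.32, adjusted p = 1.7e-06). The difference of these effects was 1.21 ± 0.43 (adjusted p = 0.057) and was not called.

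Among the mimic libraries CYP8B1 rose with the siRNA (log2 1.74 ± 0.36, adjusted p = 0.0045); on log2(FPKM + 0.1), a scale that understates changes of low genes, the value was 0.95 (adjusted p = 0.021). With the control mimic the value was 0.53 ± 0.23 (adjusted p = 0.082), which was not called, though both siIPO8-NC libraries lay above both NC libraries. The ratio of CYP8B1 to CYP7A1 in FPKM (a level corrected for transcript length) was 0.0593 and 0.0491 in siIPO8-miR-552-3p, 0.0556 and 0.0750 among miR-552-3p libraries, 0.183 and 0.225 among siIPO8-NC libraries, and 2.11 and 1.85 among NC libraries. CYP8B1 thus stood above CYP7A1 per length in NC and below it in the other 3 groups. The ratios in miR-552-3p are coarse, since the CYP8B1 values deposited there were 0.04 and 0.06 FPKM.

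**Figure D2:**
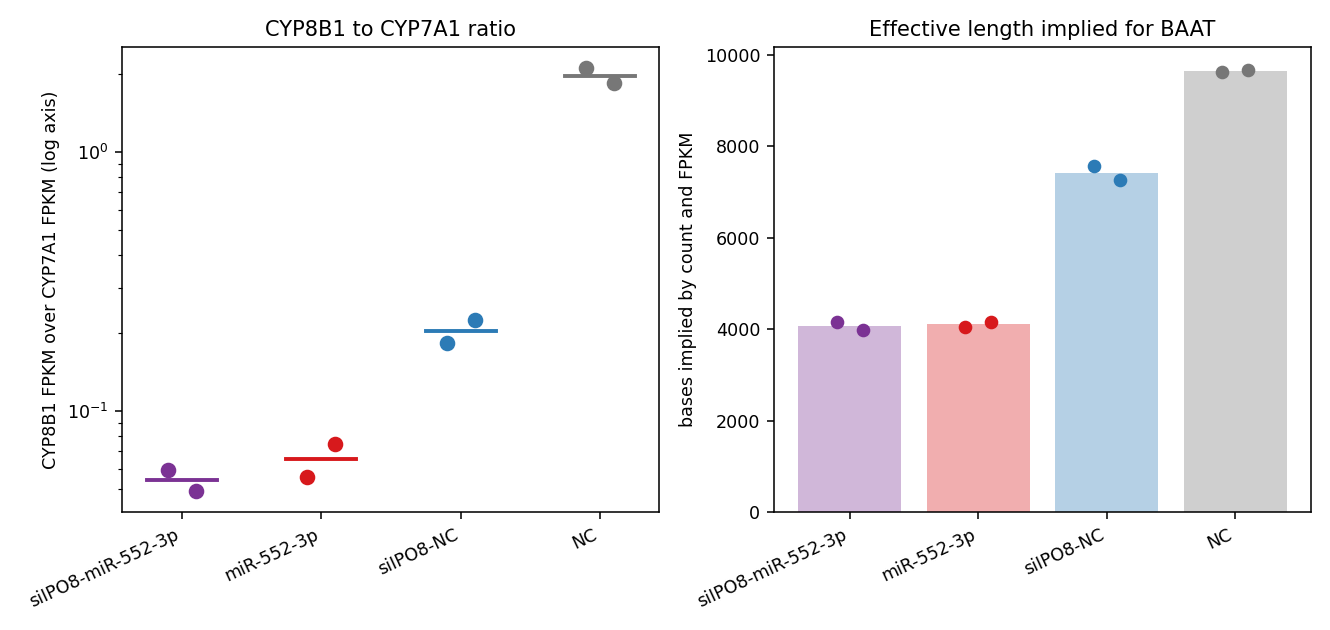
Left, the ratio of CYP8B1 to CYP7A1 FPKM in each library on a log axis, with lines at the group mean; only the NC libraries, at 2.11 and 1.85, lie above 1. Right, the effective length in bases that the deposited count and FPKM of BAAT imply (linear axis from 0, bars at the mean of 2 libraries); both mimic groups lie near 4000 bases and the NC libraries at 9615 and 9674.

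HSD3B7 (gene ID 80270, chromosome 16, 30985207 to 30989152, plus strand), the 3-beta-hydroxy-C27-steroid dehydrogenase of the second classic step, was lower under each agent. It had 30.2 and 29.1 CPM in siIPO8-miR-552-3p, 37.6 and 42.3 CPM in miR-552-3p, 37.7 and 38.6 CPM in siIPO8-NC, and 79.0 and 83.0 CPM in NC. The NC libraries lay above all others and the siIPO8-miR-552-3p libraries below all others, while miR-552-3p and siIPO8-NC overlapped. Its 300-base promoter window (RefSeq, GRCh38.p14, chr16:30984957-30985256, plus strand, 250 bases before to 50 after the start) is printed with the hexamer AGGTCA, a recognition unit of many nuclear receptors, in capitals.
HSD3B7 promoter: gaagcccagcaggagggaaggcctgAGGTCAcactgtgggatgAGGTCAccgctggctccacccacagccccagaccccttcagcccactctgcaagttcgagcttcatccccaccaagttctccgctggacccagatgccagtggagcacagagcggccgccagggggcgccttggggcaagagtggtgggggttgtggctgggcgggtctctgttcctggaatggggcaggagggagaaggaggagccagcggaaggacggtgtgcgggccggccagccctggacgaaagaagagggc
The copies begin 225 and 207 bases before the start. The letters AGGTCA were searched on both strands, were chosen after these copies had been seen, and occur in 13.8% of all promoter windows; nothing is read from them about any receptor.

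HSD3B7 fell with the mimic 1.29-fold with the importin8 siRNA (log2 -0.36 ± 0.08, adjusted p = 0.0051) and 2.03-fold with the control siRNA (log2 -1.02 ± 0.07, adjusted p = 1.1e-06), and the difference of 0.66 ± 0.10 was called (adjusted p = 0.0010). The first of these calls was lost without siIPO8-miR-552-3p replicate 2 (-0.32, adjusted p = 0.057). With the siRNA it fell in siIPO8-miR-552-3p against miR-552-3p (log2 -0.43 ± 0.08, adjusted p = 0.0017) and in siIPO8-NC against NC (-1.09 ± 0.07, adjusted p = 1.8e-06). Of the 50-base windows of its transcripts, 49.1% also occur in AC135048.4, an annotated gene at the same place, so its counts are uncertain.

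AKR1D1 (gene ID 6718, chromosome 7, 138002324 to 138117986, plus strand), the 5-beta-reductase of the steroid ring, rose with the siRNA in both arms and fell with the mimic in both arms. It had 33.3 and 33.8 CPM in siIPO8-miR-552-3p, 7.72 and 6.15 CPM in miR-552-3p, 47.5 and 47.2 CPM in siIPO8-NC, and 12.4 in each NC library. The 4 groups did not overlap. With the siRNA it rose 4.83-fold among mimic libraries (log2 2.27 ± 0.10, adjusted p = 7.2e-07) and 3.81-fold among control mimic libraries (log2 1.93 ± 0.10, adjusted p = 3.0e-07). It fell with the mimic, at -0.50 ± 0.09 with the importin8 siRNA (adjusted p = 0.0022) and -0.84 ± 0.11 with the control siRNA (adjusted p = 9.3e-05), both log2. The difference, 0.34 ± 0.14, was not called (adjusted p = 0.096). Across the 8 libraries AKR1D1 and CYP7A1 had a Pearson r of 0.91 on log2 CPM, a description of 4 groups rather than of 8 independent points.

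AKR1C4 (gene ID 1109, chromosome 10, 5195462 to 5218949, plus strand), the hepatic 3-alpha-reductase that follows AKR1D1, went the other way from most members with the mimic. It had 1.78 and 2.57 CPM in siIPO8-miR-552-3p, 1.18 and 1.56 CPM in miR-552-3p, 0.597 and 0.840 CPM in siIPO8-NC, and 0.202 and 0.177 CPM in NC, where the counts were 4.49 and 4.03. The NC libraries were lowest and the siIPO8-miR-552-3p libraries highest, with no overlap. It rose with the mimic in both arms, by 1.59 ± 0.39 with the importin8 siRNA (adjusted p = 0.012) and 2.91 ± 0.47 with the control siRNA (adjusted p = 0.00040), both log2, and with the siRNA in siIPO8-NC against NC (1.98 ± 0.49, adjusted p = 0.0076). The first was lost without siIPO8-miR-552-3p replicate 2 (1.31, adjusted p = 0.091), without siIPO8-NC replicate 1 (1.34, adjusted p = 0.078) and with DESeq2 (1.60, adjusted p = 0.073). In siIPO8-miR-552-3p against miR-552-3p the value was 0.66 ± 0.37 (adjusted p = 0.21).

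AKR1C4 shares 8.46% of its 50-base windows with other genes, chiefly its paralogs AKR1C3, AKR1C2 and AKR1C1, so reads can be split among them. Per length the paralogs were far more abundant: AKR1C1, a 20-alpha-hydroxysteroid dehydrogenase, had 484 and 521 FPKM in siIPO8-miR-552-3p and 1964 and 1700 FPKM in NC, where AKR1C4 had 1.46 and 2.13 FPKM and 0.170 and 0.160 FPKM. In CPM, AKR1C1 had 669 and 712 CPM in siIPO8-miR-552-3p, 2034 and 1988 CPM in miR-552-3p, 437 and 471 CPM in siIPO8-NC, and 2592 and 2141 CPM in NC. AKR1C1, AKR1C2 and AKR1C3 all fell in siIPO8-NC against NC (log2 -2.38, -2.02 and -0.40), where AKR1C4 rose. In miR-552-3p against NC, AKR1C2 and AKR1C3 fell (-0.73 and -0.38) and AKR1C1 was at -0.23 (adjusted p = 0.066). In siIPO8-miR-552-3p against siIPO8-NC AKR1C1 rose (0.60, adjusted p = 0.0014), as AKR1C4 did, while AKR1C2 was at 0.25 (adjusted p = 0.099) and AKR1C3 at -0.09 (adjusted p = 0.52). In siIPO8-miR-552-3p against miR-552-3p AKR1C1 and AKR1C2 fell (-1.54 and -1.05).

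CYP27A1 (gene ID 1593, chromosome 2, 218781749 to 218815293, plus strand), the mitochondrial sterol 27-hydroxylase, was the most abundant member per length in every group, and its log2 changes in the 4 comparisons lay between -0.28 and 0.27. It had 131.5 and 131.3 CPM in siIPO8-miR-552-3p, 128 and 125 CPM in miR-552-3p, 161 and 158 CPM in siIPO8-NC, and 135 and 130.0 CPM in NC. Both siIPO8-NC libraries lay above the rest. It rose in siIPO8-NC against NC (log2 0.27 ± 0.06, adjusted p = 0.0029) and fell in siIPO8-miR-552-3p against siIPO8-NC (-0.28 ± 0.06, adjusted p = 0.0039). It was not called in miR-552-3p against NC (-0.06 ± 0.06, adjusted p = 0.36) or in siIPO8-miR-552-3p against miR-552-3p (0.05 ± 0.06, adjusted p = 0.55). CYP7B1 (gene ID 9420, chromosome 8, 64587763 to 64798761, minus strand), the oxysterol 7-alpha-hydroxylase, had 3.09 and 3.13 counts in siIPO8-miR-552-3p, 0 and 2 counts in miR-552-3p, 1.05 and 2.19 counts in siIPO8-NC, and 4.10 and 4.67 counts in NC, too few for a comparison.

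AMACR (gene ID 23600, chromosome 5, 33986178 to 34008108, minus strand), the racemase that prepares the side chain for peroxisomal oxidation, fell with the mimic in both arms. It had 12.5 and 11.96 CPM in siIPO8-miR-552-3p against 25.5 and 27.7 CPM in siIPO8-NC, and 15.1 and 17.3 CPM in miR-552-3p against 35.1 and 28.5 CPM in NC. All mimic libraries lay below all control mimic libraries. The log2 fold changes were -1.12 ± 0.12 with the importin8 siRNA (adjusted p = 0.00010) and -0.97 ± 0.12 with the control siRNA (adjusted p = 4.7e-05), and their difference was -0.15 ± 0.17 (adjusted p = 0.54). With the siRNA, AMACR fell among mimic libraries (-0.41 ± 0.12, adjusted p = 0.028), a call lost in 5 of 15 alternatives, among them those without miR-552-3p replicate 2 (-0.30, adjusted p = 0.18), siIPO8-miR-552-3p replicate 1 (-0.44, adjusted p = 0.093) and siIPO8-miR-552-3p replicate 2 (-0.38, adjusted p = 0.14). The read-through gene C1QTNF3-AMACR, which covers most of the 60.0% of AMACR windows that are shared, had 0.319 and 0.872 CPM in siIPO8-miR-552-3p against 1.55 and 2.60 CPM in siIPO8-NC, and 0.720 and 0.309 CPM in miR-552-3p against 2.98 and 3.07 CPM in NC.

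SLC27A5 (gene ID 10998, chromosome 19, 58479512 to 58512413, minus strand), the bile acid-CoA ligase, had 2.98 and 2.78 CPM in siIPO8-miR-552-3p against 4.34 and 3.99 CPM in siIPO8-NC, and 2.22 and 2.35 CPM in miR-552-3p against 5.48 and 4.94 CPM in NC. All mimic libraries lay below all control mimic libraries. It fell with the mimic where the control siRNA was given (log2 -1.20 ± 0.19, adjusted p = 0.00038; -0.61 on log2(FPKM + 0.1), adjusted p = 0.020). With the importin8 siRNA the value was -0.54 ± 0.19 (adjusted p = 0.055), and neither comparison of the siRNA was called. Of its windows, 16.2% are shared, mostly with the neighbour ZNF446.

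BAAT (gene ID 570, chromosome 9, 101360417 to 101383519, minus strand), the conjugating acyltransferase, rose with the mimic while SLC27A5, which makes its substrate, did not. It had 22.2 and 20.5 CPM in siIPO8-miR-552-3p against 10.8 and 8.11 CPM in siIPO8-NC, and 20.2 and 24.2 CPM in miR-552-3p against 6.50 and 6.41 CPM in NC. The mimic groups overlapped each other and lay above the control mimic groups. The log2 fold changes were 1.18 ± 0.14 with the importin8 siRNA (adjusted p = 0.00021) and 1.78 ± 0.15 with the control siRNA (adjusted p = 3.4e-06); their difference of -0.60 ± 0.21 missed the threshold (adjusted p = 0.0505) and passed it in 4 of 14 alternatives, among them those without miR-552-3p replicate 1 (-0.73, adjusted p = 0.040) and without siIPO8-NC replicate 2 (-0.79, adjusted p = 0.015).

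In siIPO8-NC against NC, BAAT rose by 0.54 ± 0.15 on the log2 scale (adjusted p = 0.015), a call lost without NC replicate 1 (0.55, adjusted p = 0.052), NC replicate 2 (0.53, adjusted p = 0.067) or siIPO8-NC replicate 1 (0.33, adjusted p = 0.14). In siIPO8-miR-552-3p against miR-552-3p the value was -0.05 ± 0.14 (adjusted p = 0.81). On log2(FPKM + 0.1) the rises with the mimic were larger, 1.90 with the importin8 siRNA and 2.77 with the control siRNA. Of the 50-base windows of BAAT transcripts, 12.1% also occur in another annotated gene, AL359893.1, so its counts are uncertain. The effective length that count and FPKM imply for BAAT was 4158 and 3992 bases in siIPO8-miR-552-3p, 4044 and 4160 bases in miR-552-3p, 7565 and 7267 bases in siIPO8-NC, and 9615 and 9674 bases in NC, while the GENCODE transcripts have 2252 and 3377 bases. Among the 7 members with at least 10 counts in every library, the highest implied length was 2.42 times the lowest for BAAT, 1.84 times for SLC27A5 and at most 1.06 times for the other 5. This length was examined after the levels had been seen, no transcript values were used here, and why it moved was not tested. The windows of both BAAT starts in RefSeq (GRCh38.p14, chr9:101383515-101383814 and chr9:101383824-101384123, minus strand) are shown because the implied length moved between groups, with the AGGTCA hexamer, here on the opposite strand, in capitals.
BAAT promoter 1: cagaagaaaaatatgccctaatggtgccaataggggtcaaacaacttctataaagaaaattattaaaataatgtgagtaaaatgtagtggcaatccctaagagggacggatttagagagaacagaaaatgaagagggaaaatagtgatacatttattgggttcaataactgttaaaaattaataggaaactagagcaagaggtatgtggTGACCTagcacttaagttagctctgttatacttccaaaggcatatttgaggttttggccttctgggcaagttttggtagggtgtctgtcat
BAAT promoter 2: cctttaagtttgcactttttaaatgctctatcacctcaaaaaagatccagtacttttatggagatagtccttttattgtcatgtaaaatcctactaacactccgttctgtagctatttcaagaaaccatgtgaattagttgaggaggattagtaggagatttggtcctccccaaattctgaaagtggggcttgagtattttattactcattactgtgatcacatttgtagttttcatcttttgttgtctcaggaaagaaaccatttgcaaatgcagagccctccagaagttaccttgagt
Promoter 1 holds 1 copy, 41 bases before the start, and promoter 2 holds none. The files do not tell which start was used.

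**Figure D3:**
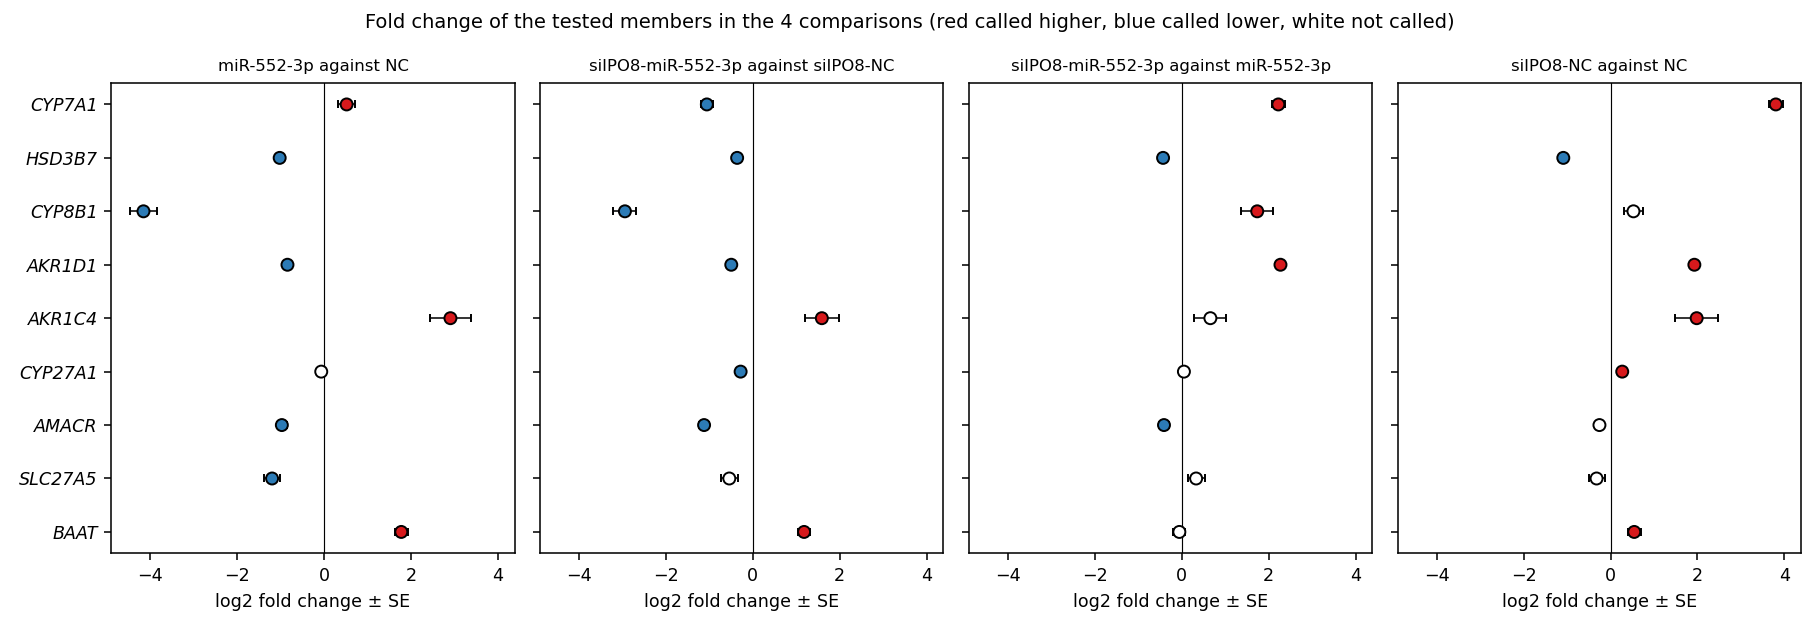
Log2 fold change (points) and its SE (bars) of the 9 tested members in the 4 comparisons, each with the group named first over the other. With the mimic CYP8B1 lies lowest, at -4.16 and -2.94, and AKR1C4 and BAAT lie above 0 in both arms; with the siRNA CYP7A1 and AKR1D1 lie between 1.93 and 3.80.

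The difference of the mimic's effect between the arms was called for 2 of the 9 members, HSD3B7 higher and CYP7A1 lower, where 31.3% of all genes were called (14.2% higher, 17.1% lower). The members' median difference was -0.15, against -0.02 over all genes. The count was 4 without miR-552-3p replicate 1, with AKR1D1 (0.52, adjusted p = 0.021) and BAAT added.

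Per length, the order of the members in NC ran from CYP27A1 (71.1 ± 1.4 FPKM, SD, n = 2) and HSD3B7 (38.6 ± 2.8) through AMACR (9.76), AKR1D1 (4.74), SLC27A5 (2.40), CYP8B1 (1.10), BAAT (0.690) and CYP7A1 (0.560) to AKR1C4 (0.165) and CYP7B1 (0.055), and no neighbours overlapped. In siIPO8-NC, AKR1D1 (17.8 ± 0.1 FPKM) stood second but overlapped HSD3B7 (17.6 ± 0.5), and CYP7A1 (7.67 ± 0.21) overlapped AMACR (8.08 ± 0.59) and stood above SLC27A5 (1.89). In miR-552-3p, BAAT (5.32 ± 0.53) stood next after HSD3B7 and overlapped AMACR (4.75 ± 0.42), and CYP8B1 (0.050 ± 0.014) overlapped CYP7B1 (0.045 ± 0.064). In siIPO8-miR-552-3p, CYP7A1 (3.50 ± 0.06) overlapped AMACR (3.51 ± 0.08), and AKR1C4 (1.80 ± 0.47) overlapped SLC27A5 (1.48 ± 0.08).

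Among other genes of the synthesis route, STAR, which carries cholesterol into mitochondria, changed most with the mimic. Of 10 tested, 3 rose and 5 fell in miR-552-3p against NC and 1 rose and 6 fell in siIPO8-miR-552-3p against siIPO8-NC, with medians of -0.19 and -0.27. Beside this, 58.4% of all genes were called in the first comparison (29.5% lower) and 31.7% in the second (16.7% lower). STAR had 2.68 and 2.60 CPM in siIPO8-miR-552-3p against 8.42 and 9.09 CPM in siIPO8-NC, and 0.872 and 0.981 CPM in miR-552-3p against 22.6 and 26.7 CPM in NC, with no overlap. It fell with the mimic in both arms (log2 -1.72 and -4.72), and the difference of 3.00 ± 0.23 was called (adjusted p = 9.8e-06). With the siRNA, 5 of the 10 rose and 3 fell in siIPO8-NC against NC and 5 rose and 2 fell in siIPO8-miR-552-3p against miR-552-3p. These 2 siRNA comparisons called 47% and 33.5% of all genes. ACOX2, the peroxisomal oxidase of the bile acid side chain, rose in both (1.62 and 0.63), as did POR, which passes electrons to microsomal P450 enzymes (0.80 and 0.81).

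Most regulators of bile acid synthesis fell with the mimic. Of 16 tested, 2 rose and 11 fell in miR-552-3p against NC (median -1.02), and 1 rose and 13 fell in siIPO8-miR-552-3p against siIPO8-NC (median -0.49). Over all genes tested, 28.9% rose and 29.5% fell in the first comparison, and 15% rose and 16.7% fell in the second. KLB, the co-receptor for FGF19, had 43.4 and 43.6 CPM in siIPO8-miR-552-3p against 121 and 129.7 CPM in siIPO8-NC, and 23.9 and 24.4 CPM in miR-552-3p against 436 and 448 CPM in NC. Its 4 groups did not overlap, and it fell with the mimic in both arms (log2 -1.53 and -4.20). NR5A2 (LRH-1), an activator of CYP7A1 and CYP8B1, had 4.88 and 4.85 CPM in siIPO8-miR-552-3p, 5.32 and 5.25 CPM in miR-552-3p, 8.13 and 8.23 CPM in siIPO8-NC, and 48.1 and 44.8 CPM in NC. It was thus low in all 3 treated groups, and fell with the mimic in both arms (log2 -0.75 and -3.14) and with the siRNA in siIPO8-NC against NC (-2.51). FGFR4, the FGF19 receptor, fell with the mimic in both arms (-0.51 and -1.55), as did PPARA, a fatty acid receptor (-0.80 and -1.58).

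The receptor FXR (NR1H4) had 70.3 and 66.2 CPM in siIPO8-miR-552-3p against 84.7 and 77.1 CPM in siIPO8-NC, and 27.6 and 27.5 CPM in miR-552-3p against 73.3 and 74.7 CPM in NC. Only the miR-552-3p libraries were well below the rest. NR1H4 fell with the mimic in both arms (log2 -0.25 with the importin8 siRNA, adjusted p = 0.018, and -1.43 with the control siRNA, adjusted p = 8.2e-08), and the difference of 1.18 ± 0.10 was called (adjusted p = 1.6e-05). NR0B2 (SHP), an FXR target that represses CYP7A1, had 168 and 177 CPM in siIPO8-miR-552-3p, 49.1 and 49.3 CPM in miR-552-3p, 316 and 318 CPM in siIPO8-NC, and 138 and 123 CPM in NC. It rose with the siRNA in both arms (log2 1.81 and 1.28) and fell with the mimic in both arms (-0.88 and -1.41). CYP7A1 also rose with the siRNA in both arms, and a link between these genes was not tested. Under the siRNA, 11 of the 16 regulators rose and 1 fell among mimic libraries (median 0.41), and 6 rose and 5 fell among control mimic libraries (median 0.15). The shares over all genes were 17.3% higher and 16.2% lower among mimic libraries, and 25.4% higher and 21.6% lower among control mimic libraries. The difference of the mimic's effect was called for 10 regulators, 9 higher and 1 lower, where 31.3% of all genes were called (14.2% higher, 17.1% lower). The lower regulator was the xenobiotic receptor NR1I2 (-1.17 ± 0.13, adjusted p = 0.00014).

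**Figure D4:**
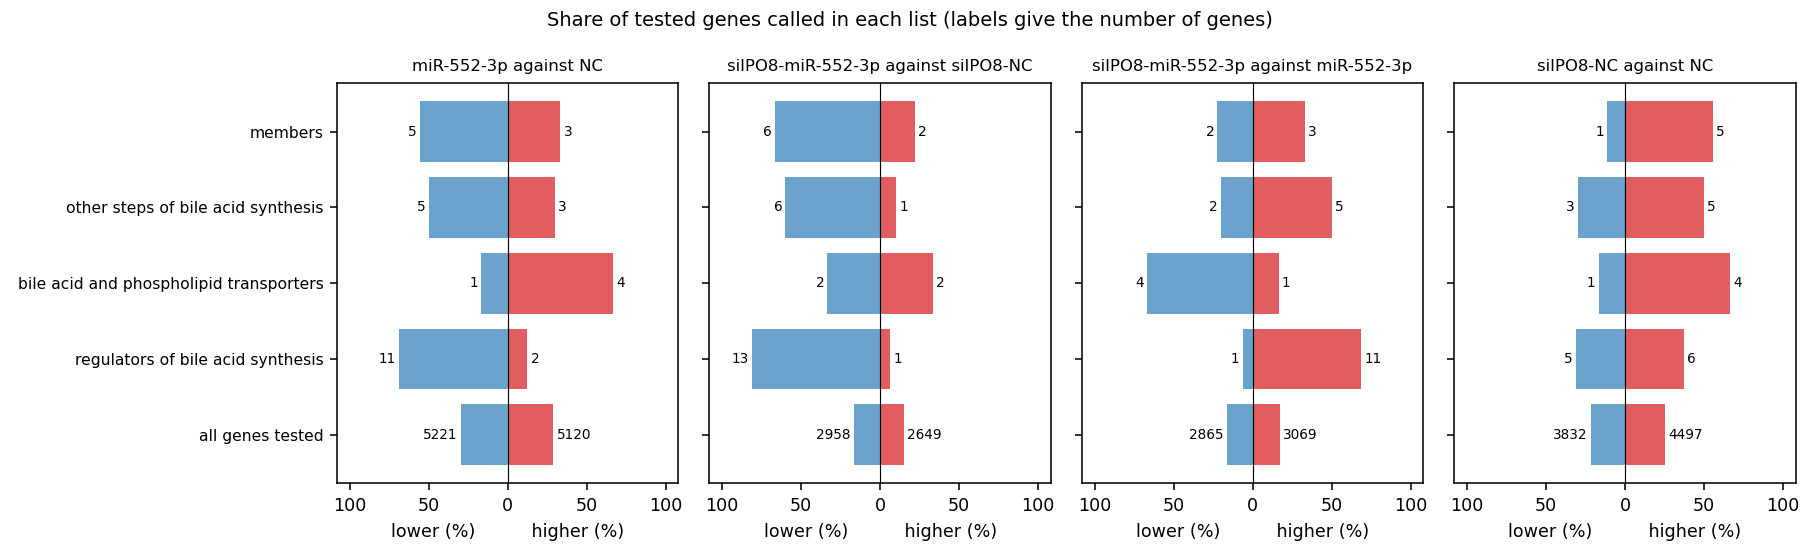
Share of the tested genes called higher (right) and lower (left) in each list and comparison, in percent, with the number of genes at each bar; the lowest row gives all 17715 genes. Among the regulators 11 of 16 fell and 2 rose in miR-552-3p against NC, and 11 rose and 1 fell in siIPO8-miR-552-3p against miR-552-3p. Over all genes 29.5% fell and 28.9% rose in the first, and 17.3% rose and 16.2% fell in the second.

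Of 12 transporters of bile acids and phospholipids, 6 could be tested; the bile salt pump ABCB11 and the uptake carrier SLC10A1 were among those with too few counts. In miR-552-3p against NC 4 rose and 1 fell, and in siIPO8-miR-552-3p against siIPO8-NC 2 rose and 2 fell. The share of all genes called was 58.4% in the first comparison and 31.7% in the second. ABCC2, a canalicular export pump, had 779 and 753 CPM in siIPO8-miR-552-3p, 1298 and 1350 CPM in miR-552-3p, 543 and 533 CPM in siIPO8-NC, and 427 and 419 CPM in NC, with no overlap. It rose with the mimic by 0.51 and 1.65 (log2, with the importin8 and the control siRNA), the basolateral pump ABCC3 by 0.57 and 1.61, and the difference was called for both (-1.14 and -1.04). ABCC4, another basolateral pump, had 6.30 and 5.98 CPM in siIPO8-miR-552-3p against 5.39 and 4.84 CPM in siIPO8-NC, and 10.9 and 11.5 CPM in miR-552-3p against 2.32 and 2.63 CPM in NC. It rose with the mimic under the control siRNA (2.16 ± 0.15) and was at 0.26 ± 0.15 under the importin8 siRNA (adjusted p = 0.21), and the difference was called (-1.90 ± 0.21, adjusted p = 0.00012). ABCB4, the phospholipid floppase, fell in both arms (-0.58 and -1.28). SLC51A, a subunit of the basolateral bile acid exporter, rose with the siRNA by 2.05 among mimic libraries and 2.79 among control mimic libraries. Its levels were 78.7 and 80.2 CPM in siIPO8-miR-552-3p, 20.1 and 18.3 CPM in miR-552-3p, 122 and 112 CPM in siIPO8-NC, and 19.0 and 15.0 CPM in NC, so that, as for CYP7A1, all 4 libraries with the importin8 siRNA lay above the others. SLC51B, the other subunit, did not rise with the siRNA. It fell among mimic libraries (log2 -0.47, adjusted p = 0.023) and was at 0.20 among control mimic libraries (adjusted p = 0.26), both in edgeR. Of 4 detoxification genes, 1 rose and 3 fell in miR-552-3p against NC and none was called in siIPO8-miR-552-3p against siIPO8-NC, beside the same shares of 58.4% and 31.7%. UGT2B4, which glucuronidates bile acids, was at -1.79 in the first and at -0.18 in the second (adjusted p = 0.27), with a difference of 1.61 (adjusted p = 8.7e-05). CYP3A4, a hydroxylase of bile acids and drugs, also fell in the first, with 1.08 and 0 counts in miR-552-3p against 26.1 and 22.8 counts in NC. It was as low in the groups with the importin8 siRNA, with 3.40 and 0 counts in siIPO8-NC and 2.42 and 0 counts in siIPO8-miR-552-3p. CYP3A4 was also called lower in siIPO8-NC against NC (log2 -3.90, adjusted p = 0.011 in edgeR).

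The genes whose log2 CPM followed CYP7A1 most closely over the 8 libraries, among 10858 with a mean of at least 100 counts, were PHF19, CWF19L1 and TATDN2 (Pearson r 0.996, 0.994 and 0.994). PHF19 had 26.5 and 27.4 CPM in siIPO8-miR-552-3p, 14.9 and 14.7 CPM in miR-552-3p, 33.4 and 31.4 CPM in siIPO8-NC, and 12.1 and 13.8 CPM in NC. For CYP8B1 they were POM121, IL22RA1 and SUZ12 (0.999, 0.997 and 0.996). These values describe 4 groups of 2 libraries; 599 genes for CYP7A1 and 973 for CYP8B1 had an r over 0.9.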

How the data were processed

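Sample titles gave the groups, and the table's columns, with names such as NC1, NC51 and SI51, were read as abbreviations of those titles; 0 columns of per-sample values were left unread. Per the file headers, the authors deposited an expected count and an expression value per gene and library. The deposited expression values were taken as FPKM made by the authors from those counts, since the header names no unit and the lengths they imply have a median of 2621 to 2797 bases over well-counted genes; the length implied for BAAT was above that of its GENCODE transcripts. The submitters' processing notes name HISAT2 2.0.4, Bowtie2 2.2.5, RSEM 1.2.8 and GRCh38.p12, with no role stated. Reads were single-end, 50 bases. Of the expected counts, 24.3 to 26.5% were whole within 1e-06 with zeros counted, and 10.7 to 12.1% of those above 0. Use of strand in counting is not stated in the sources used, so overlapping and antisense genes cannot be told apart. A second deposited table of 25738 genes in 4 libraries had 0 cells that differed from the table used.

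Expected counts were rounded for the tests. Genes were filtered with filterByExpr (17715 of 26716 kept), scaled by TMM (0.961 to 1.06), and fitted with a mean per group over all 8 libraries in edgeR 4.0.16 (R 4.3.3; quasi-likelihood F test, robust, Benjamini-Hochberg over all genes tested), first tested on simulated data. SE, which is approximate, divides the size of the log2 fold change by the square root of F. CPM use unrounded counts over TMM library sizes. Levels between genes were compared only in FPKM, with SD over 2 libraries. Replicates differed beyond sampling noise, with a chi-square of 4.30 to 9.80 per degree of freedom, so each library counts as 1 sample. Alternatives were DESeq2 1.42.0, limma 3.58.1 (voom, and log2(FPKM + 0.1)), median-ratio size factors, no low-count filter, the compared libraries alone, a replicate block and each library left out. Members and lists were chosen with earlier results of these data known. The text names all 10 members, IPO8, paralogs and neighbours, and 3 genes most like CYP7A1 and CYP8B1 each. From each list it names genes from among the 4 with the largest called change in a comparison. For markers of other cells it names every one called in miR-552-3p against NC. Shared windows are 50-base stretches of GENCODE v29 transcripts found in another gene on either strand.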

Additional observations from a re-analysis of the deposited data

Results flagged for a closer look

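The effect of the mimic on CYP7A1 differed between the siRNA arms by a test of the difference itself: the log2 difference, with the importin8 siRNA minus with the control siRNA, was -1.58 (adjusted p = 0.00059 in edgeR), and it lay between -1.83 and -1.36 in the 14 alternatives. The effect on HSD3B7 differed by 0.66 (adjusted p = 0.0010 in edgeR), between 0.57 and 0.75 in the alternatives. What lies behind either difference was not tested.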

How the results depend on the processing

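The number of members called kept within 1.5 times its value under every alternative in the 4 comparisons of groups. For the difference of the mimic effects, 2 members were called, against 4 with limma on log2(FPKM + 0.1), and 2 to 4 with 1 library left out; the cause was not tested. Of the single member values, 337 of those with a library left out kept direction and side of the threshold, 16 lost the call, 5 gained it and 2 changed sign; under the other settings the numbers were 292, 8, 5 and 1. The changes of sign were of values near 0 that were never called, in siIPO8-miR-552-3p against miR-552-3p: BAAT, at -0.05, ranged from -0.18 to 0.09 with a library left out, was 0.089 without miR-552-3p replicate 2 and 0.0028 without siIPO8-miR-552-3p replicate 2; SLC27A5, at 0.33, was -0.052 on log2(FPKM + 0.1). Same-numbered libraries deviated together little (correlations of -0.069 to 0.109 over 11484 genes). These correlations cannot decide whether the libraries were made as pairs. With a replicate block the members called stayed at 8, 8, 6, 5 and 2 for the mimic with the control siRNA, the mimic with the importin8 siRNA, the siRNA with the control mimic, the siRNA with the mimic, and the difference. Where a library was left out, the lone library of its group was assumed to vary like the other groups. With 2 libraries a group and CYP8B1, AKR1C4 and CYP7B1 under 10 counts in some, folds of these genes are imprecise at this depth.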
